A study of Mus musculus with 2 samples.

Results

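The alveolar epithelial genes described here are 7 of the 479 genes of a Xenium panel, chosen by name with earlier results of these data known. *Lamp3*, *Mlc1*, *Hc*, *Lrp2* and *Cdh16* (5 genes) stand for alveolar type 2 cells, and *Ager* and *Aqp5* (2 genes) for alveolar type 1 cells. Xenium In Situ hybridizes probes to a formalin-fixed section and counts the transcripts of each panel gene in place by imaging. The counts came from 1 lung section of each of 2 mouse models of small cell lung cancer (SCLC), cut from one paraffin block. In RPR2 mice, floxed *Rb1*, *Trp53* and *Rbl2* alleles were deleted by adenoviral Cre, instilled into the trachea at 10 weeks of age. CRPR2 mice carried the same alleles, received the same treatment and also lacked *Cracd*, a regulator of the actin cytoskeleton. The *Cracd* deletion was in the germline, so the alveolar cells of CRPR2 lacked it together with the tumor cells. Only cells reached by the virus could lose the floxed genes. The labels name C57BL/6 mice and both sexes for the cohorts, without saying which animals gave the sections. They call the virus Ad-Cracd-Cre, whereas the study names a CMV promoter for the tumors it dissociated, so the promoter behind these sections is not settled.

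The alveolus is lined by a pair of epithelial cell types. Flat type 1 cells cover most of its surface and carry gas exchange, and cuboidal type 2 cells make and recycle surfactant, which they store in lamellar bodies. Type 2 cells can divide and give rise to type 1 cells after injury, passing through states that carry genes of both. *Lamp3* encodes a membrane protein of lysosomes and lamellar bodies, which mature dendritic cells also make. *Hc* encodes complement C5, *Mlc1* a membrane protein best known from astrocytes, *Lrp2* the endocytic receptor megalin, and *Cdh16* a cadherin first found in kidney. *Ager* encodes RAGE, a receptor of the type 1 cell surface, and *Aqp5* a water channel of type 1 cells that airway glands also make.

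Promoters are shown for *Lamp3* and *Hc*. These 2 type 2 genes were detected in the same cells more often than independence gives, and their ratio stood apart in tumor-gated cells, as described further on. The sequences are the 250 bases before the start used in the RefSeq promoter table (GRCm38.p6), on the strand of the gene. The RefSeq entry of *Hc* reaches further upstream, so its window lies inside the gene as listed. Capitals mark GGAATG, the core of TEAD motifs, or its reverse complement CATTCC. The *Lamp3* window lies at chr16:19706366-19706615 and the *Hc* window at chr2:35061413-35061662, both on the minus strand.
*Lamp3*: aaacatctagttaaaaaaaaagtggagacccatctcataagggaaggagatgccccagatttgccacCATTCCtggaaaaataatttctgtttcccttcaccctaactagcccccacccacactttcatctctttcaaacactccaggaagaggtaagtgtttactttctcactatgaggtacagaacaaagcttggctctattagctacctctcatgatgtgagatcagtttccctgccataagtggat
*Hc*: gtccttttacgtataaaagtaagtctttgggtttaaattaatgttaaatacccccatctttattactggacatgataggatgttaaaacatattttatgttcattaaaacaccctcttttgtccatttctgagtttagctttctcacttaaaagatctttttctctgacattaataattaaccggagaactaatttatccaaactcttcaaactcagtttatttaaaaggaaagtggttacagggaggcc
The *Lamp3* window held 1 TEAD match, which starts 183 bases before that start, and the *Hc* window held none. Neither window held CTCAAG or its reverse complement CTTGAG, the core of motifs of NKX2-1, a transcription factor of lung epithelium. Of the 32851 windows of the same length in the table, 12.6% held the TEAD core and 13.3% the NKX2-1 core. Among the 6 members with a window in the table, the TEAD core was in 1 and the NKX2-1 core in 0. *Cdh16* has no entry in it.

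The RPR2 section held 154818 segmented cells with 16313950 gene transcripts, and the CRPR2 section 342845 cells with 37348565 (median, 100 and 101 per cell). Cells with at least 20 transcripts were kept, 152915 in RPR2 and 340609 in CRPR2. Levels are counts of a gene per 1000000 gene transcripts (CPM), summed over a group of cells. With 1 section per genotype there was no replicate and no test, and every interval given (95%, exact) covers counting error only. Cells of one section are not replicates of a genotype, and sections, mice and genotypes cannot be told apart. Probes differ between genes, so levels were compared for the same gene, and pairs of genes by their ratio in different cells. Over all cells, every member lay far above the 20 negative control probes. The highest of these probes had 9.93 CPM in RPR2 against 8.43 CPM in CRPR2. *Lamp3* had 5061 CPM in RPR2 against 4453 CPM in CRPR2. *Hc* had 4195 and 2328 CPM, *Mlc1* 559.9 and 269 CPM, *Lrp2* 893 and 945 CPM, and *Cdh16* 284 and 165 CPM. *Ager* had 11531 CPM in RPR2 against 4755 CPM in CRPR2, and *Aqp5* 2491 and 1907 CPM. The share of cells with at least 1 transcript ran from 2.56% (*Cdh16*) to 40.5% (*Ager*) in RPR2 and from 1.52% to 22.4% for the same genes in CRPR2.

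Over all cells, most of the alveolar genes took a smaller share of the transcripts in CRPR2 than in RPR2. The type 2 genes together had 10994 CPM in RPR2 against 8161 CPM in CRPR2, a log2 ratio of -0.43 (-0.44 to -0.42). The type 1 genes had 14023 and 6662 CPM, a log2 ratio of -1.07 (-1.08 to -1.07). Past 2-fold lower in CRPR2 were 2 of the 7 genes, *Ager* (log2 ratio, -1.28) and *Mlc1* (-1.06), where 24.3% of the 358 genes with at least 100 CPM in either section were. *Hc* and *Cdh16* had log2 ratios of -0.85 and -0.78, *Aqp5* -0.39 and *Lamp3* -0.18, whereas *Lrp2* had 0.08. None was past 2-fold higher, against 22.9% of those genes. Among the 5 panel genes of a further alveolar list (*Sftpb*, *Sftpd*, *Slc34a2*, *Cav1* and *Vegfa*), 1 was past 2-fold lower and 0 higher. That gene was *Cav1*, which encodes a caveolar coat protein of type 1 and endothelial cells (log2 ratio, -1.88). A level summed over all cells does not separate fewer cells of a type from less RNA per cell. Levels in cells selected by *Hc* are given further on.

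Both sections are labelled SCLC, but they differed in how much of them was tumor. Cells with at least 5 transcripts of 14 neuroendocrine (NE) genes, and at least 2 times as many as of any other class, were called tumor-gated, a gate that uses no alveolar gene. Tumor-gated cells made up 9.96% of the cells in RPR2 (15232 cells) and 55.2% in CRPR2 (188174 cells). Cells with at least 5 NE transcripts that failed the rule of 2 times stayed outside the gate, and more so in CRPR2. For example, 27.3% of CRPR2 cells with at least 2 transcripts of each alveolar type had at least 5 NE transcripts, and 12.1% were tumor-gated. In RPR2 these shares were 2.95% and 1.72%. Outside the gate the type 2 genes were higher in CRPR2, with 14825 CPM against 12004 CPM in RPR2 (log2 ratio, 0.30, 0.30 to 0.31). The type 1 genes were still lower in CRPR2, with 11309 CPM against 15348 CPM (log2 ratio, -0.44, -0.45 to -0.43). With the gate set by the NE minimum alone, the log2 ratios outside it were 0.36 for type 2 and -0.40 for type 1 genes. So the direction of the type 2 sum differed between the whole section and its cells outside the tumor gate, and that of the type 1 sum did not. Single genes did not all follow their sum. *Lamp3*, *Hc* and the type 1 gene *Aqp5* turned from lower to higher in CRPR2. *Mlc1*, *Cdh16* and *Ager* stayed lower, and *Lrp2* stayed higher. *Lrp2* had the highest ratio of the 7 (975 CPM in RPR2 against 1722 CPM in CRPR2, log2 ratio 0.82), followed by *Lamp3* (0.47). *Hc* had 4643 and 4707 CPM (log2 ratio, 0.02), *Mlc1* a log2 ratio of -0.16 and *Cdh16* of -0.10. The type 1 genes parted, with *Ager* at 12659 CPM in RPR2 against 8378 CPM in CRPR2 (log2 ratio, -0.60) and *Aqp5* at 2690 and 2931 CPM (0.12). No member was past 2-fold in either direction, where 8.06% of 360 genes were lower in CRPR2 and 25% higher, with a median log2 ratio over these genes of 0.27.

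In cells without any NE transcript (112883 in RPR2 and 71246 in CRPR2), the type 2 genes had a log2 ratio of 0.46 (0.45 to 0.47) and the type 1 genes one of -0.36 (-0.37 to -0.35). *Hc* then had 4904 CPM in RPR2 against 6430 CPM in CRPR2 (log2 ratio, 0.39), and *Mlc1* 659.5 and 803 CPM (0.28). *Lrp2* stayed the member with the highest ratio (0.84), and *Ager* that with the lowest (-0.40). No member was past 2-fold, where 3.83% of 339 genes were lower in CRPR2 and 20.6% higher. *Sftpd* and *Slc34a2*, which encode surfactant protein D and the phosphate transporter of type 2 cells, had log2 ratios of 0.56 and 0.58 in these cells. The other genes of the further alveolar list, *Sftpb*, *Vegfa* and *Cav1*, had 0.12, -0.29 and -0.57, where the median over those 339 genes was 0.20.

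**Figure D1:**
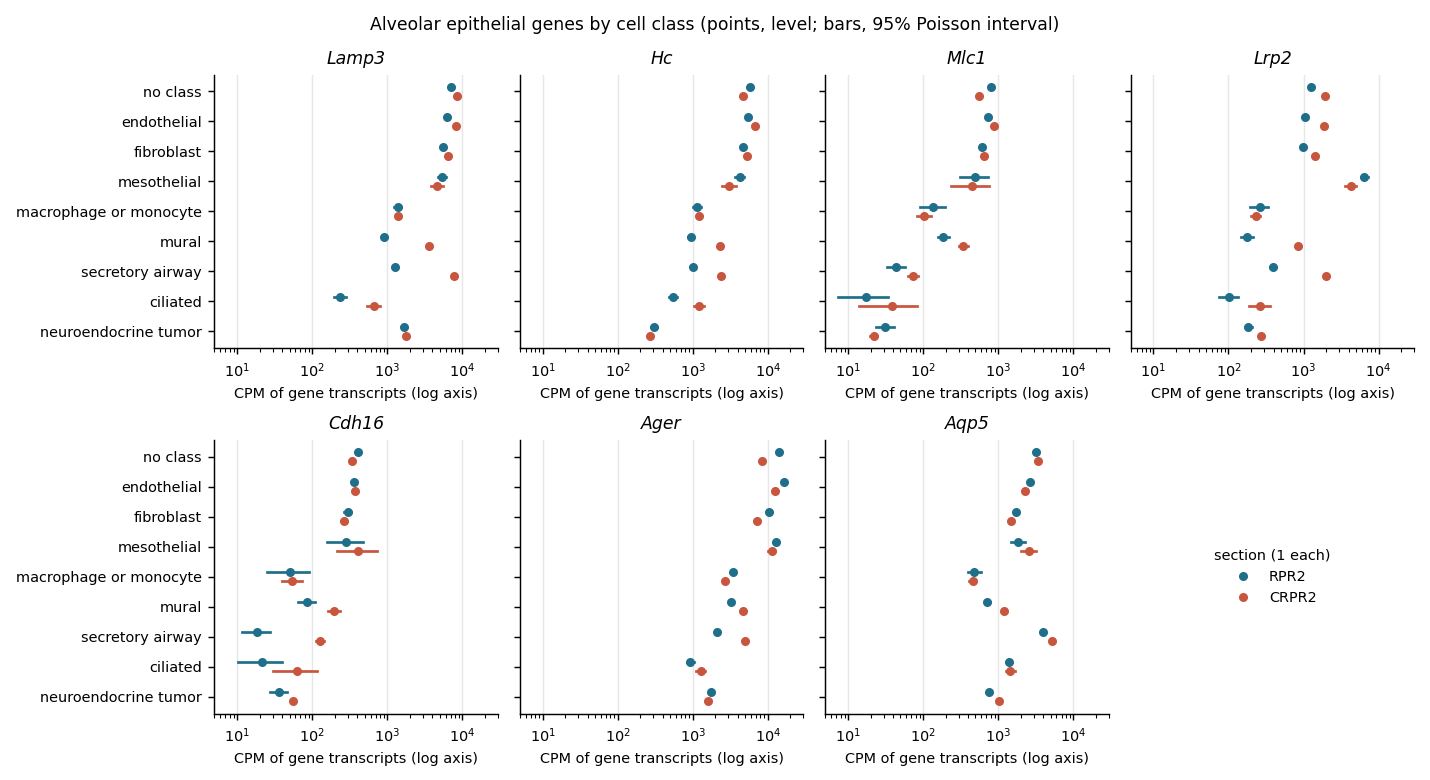
Level of each alveolar gene (CPM of gene transcripts, log axis) in 8 gated classes and in cells without a class, for the RPR2 and the CRPR2 section, 1 of each, with points for the level and bars for the 95% Poisson interval. *Lamp3*, *Hc* and *Lrp2* lie higher in CRPR2 than in RPR2 in the secretory airway, mural and ciliated gates.

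Cells were sorted into 13 classes by marker lists that hold none of the 7 genes, and 25.6% of RPR2 cells and 20.2% of CRPR2 cells took no class. No class was made for alveolar cells, because the members themselves mark them. The plot of levels by class shows where their transcripts lay. *Lamp3* had 7008 CPM in RPR2 against 8559 CPM in CRPR2 in cells without a class. It had nearly as much in endothelial-gated cells (6323 and 8329 CPM) and fibroblast-gated cells (5560 and 6436 CPM). *Ager* was higher in endothelial-gated cells (16361 and 12513 CPM) than in cells without a class (14245 and 8371 CPM). Those stromal gates therefore did not separate alveolar cells from others, and 39.2% of RPR2 cells and 11.1% of CRPR2 cells were endothelial-gated. Ciliated cells held little *Lamp3*, 235 CPM in RPR2 against 665.7 CPM in CRPR2. In the 109 cartilage-gated cells of CRPR2 the type 2 genes were at 0, for which the exact interval reaches up to 348 CPM for each, and *Ager* had 1 transcript.

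Some genes had a home outside the alveolus as well. *Lrp2* was highest in mesothelial-gated cells, with 6469 CPM (RPR2) and 4233 CPM (CRPR2), against 1251 and 1915 CPM in cells without a class. *Aqp5* was highest in secretory airway-gated cells (4022 and 5290 CPM), where 33.6% and 41.6% of cells had a transcript. There *Aqp5* outnumbered *Ager* 1.92 to 1 in RPR2 and 1.07 to 1 in CRPR2, whereas in cells without a class the ratio was 0.228 and 0.411. In these secretory cells the sections stood far apart. *Lamp3* had 1258 CPM in RPR2 against 7699 CPM in CRPR2, *Lrp2* 388 and 1995 CPM, *Hc* 1015 and 2403 CPM, and *Ager* 2093 and 4949 CPM. *Mlc1* stayed low there, at 43.5 and 73.5 CPM.

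**Figure D2:**
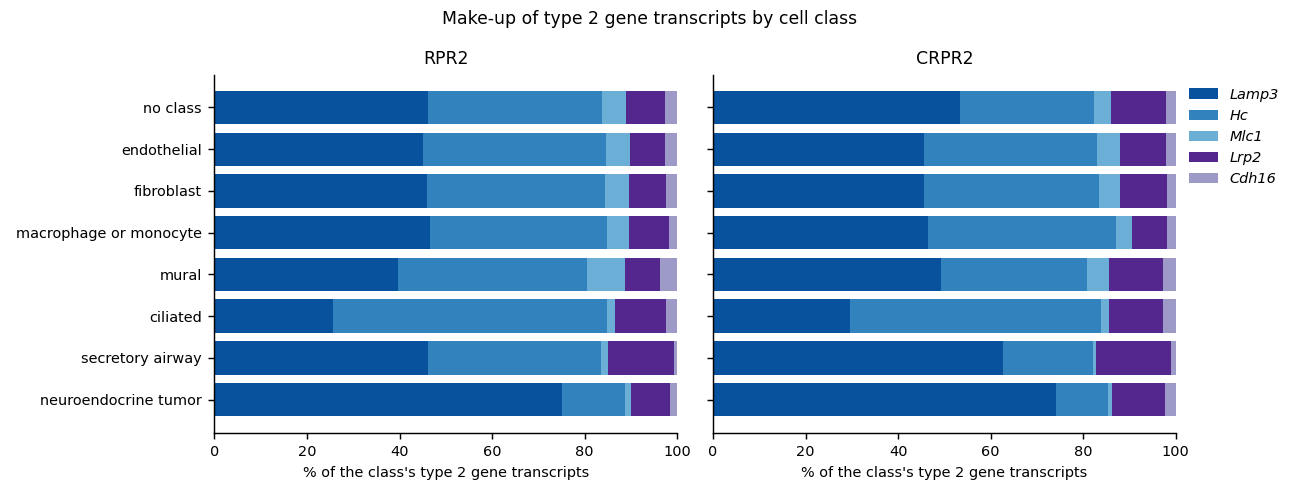
Share (%) of the transcripts of the 5 type 2 genes that each gene gave, in 7 gated classes and in cells without a class, for each section. *Lamp3* gave 75% of them in tumor-gated cells of RPR2 and 74.1% in CRPR2, against 45.1% and 45.5% in endothelial-gated cells.

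The ratio of *Lamp3* to *Hc* was alike in endothelial-, fibroblast- and macrophage-gated cells and stood apart in tumor-gated and ciliated cells. The number of *Lamp3* transcripts per *Hc* transcript came to 1.14 in endothelial-gated cells of RPR2 (1.13 to 1.16) and 1.21 in CRPR2 (1.19 to 1.23). The ratio was 1.2 in fibroblast-gated cells of either section and 1.21 and 1.15 in macrophage-gated cells. In tumor-gated cells it was 5.49 in RPR2 (5.0 to 6.05) and 6.61 in CRPR2 (6.43 to 6.81). In ciliated cells it was 0.431 and 0.544. Mural-gated cells had 0.974 in RPR2 (0.874 to 1.08) and 1.56 in CRPR2 (1.45 to 1.67). Secretory airway-gated cells had 1.24 in RPR2 (1.15 to 1.33) and 3.20 in CRPR2 (3.11 to 3.31). *Mlc1* gave 1.42% and 0.918% of the type 2 transcripts in tumor-gated cells against 5.27% and 4.81% in endothelial-gated cells, and it was also low in ciliated (1.87% and 1.69%) and secretory airway-gated cells (1.60% and 0.598%). In mesothelial-gated cells *Lrp2* gave 38.3% and 33.0%.

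All 7 genes were lower in tumor-gated cells than in the other cells of the same section. The type 2 genes together had 2217 CPM in tumor-gated cells of RPR2 against 12004 CPM elsewhere (log2 ratio, -2.44, -2.48 to -2.39). In CRPR2 they had 2386 CPM against 14825 CPM (log2 ratio, -2.64, -2.65 to -2.62). The type 1 genes had log2 ratios of -2.62 in RPR2 (-2.66 to -2.57) and -2.10 in CRPR2 (-2.11 to -2.09). Past 2-fold lower were 7 of 7 genes in each section, where 54.9% of 355 genes in RPR2 and 58.2% of 366 genes in CRPR2 were. The sizes differed among the type 2 genes. *Mlc1* was 19.7-fold lower in RPR2 and 25.3-fold in CRPR2, and *Hc* 15.3-fold and 17.6-fold. In tumor-gated cells *Mlc1* had 31.5 and 21.9 CPM, not far above the highest negative control probe of the sections (9.93 and 8.43 CPM). *Lamp3* was 3.28-fold lower in RPR2 and 4.27-fold in CRPR2, with *Lrp2* (5.31-fold and 6.32-fold) and *Cdh16* (8.63-fold and 5.30-fold) in between. Of the type 1 genes, *Ager* was 7.31-fold and 5.19-fold lower and *Aqp5* 3.50-fold and 2.87-fold.

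*Lamp3* was detected in 11.3% of tumor-gated cells in RPR2 (10.8% to 11.8%) and 11.9% in CRPR2 (11.8% to 12.1%). Among the classes that should lack it, the mural (4.06%), ciliated (1.69%) and macrophage gates (9.45%) had fewer cells with a transcript in RPR2. In CRPR2 they had 9.69%, 4.70% and 13.8%, at median depths of 97, 100 and 150 transcripts against 99 in tumor-gated cells. The tumor share in CRPR2 was thus below that of the deeper macrophage gate and above those of the mural and ciliated gates. In RPR2 it was above all 3. It was below the RPR2 shares of the endothelial (24.2%), fibroblast (22.1%), mesothelial (20.8%), neutrophil (16.6%), T or NK (14.7%) and B or plasma gates (11.9%). In CRPR2 the endothelial (30.9%), fibroblast (23.2%) and mesothelial gates (18.8%) were above the tumor share. The neutrophil (8.70%), T or NK (8.14%) and B or plasma gates (6.07%) were below it there. *Hc* was detected in 2.60% and 2.18% of tumor-gated cells, below the mural (4.36% and 8.33%) and ciliated gates (4.90% and 10.95%). At least 3 transcripts of *Lamp3* were found in 239 tumor-gated cells of RPR2 and 2702 of CRPR2 (1.57% and 1.44%), and the highest count in 1 cell was 14 and 27. At least 3 of *Hc* were found in 25 and 242 cells (0.164% and 0.129%). The levels of the members in tumor-gated cells were similar in the sections, with log2 ratios of CRPR2 over RPR2 of 0.09 for *Lamp3* (0.03 to 0.15), -0.18 for *Hc* (-0.31 to -0.04) and -0.10 for *Ager* (-0.16 to -0.05). *Aqp5* (0.41) and *Lrp2* (0.57) were higher in CRPR2, and *Cdh16* (0.60) and *Mlc1* (-0.53) rested on 61 and 53 transcripts in RPR2.

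**Figure D3:**
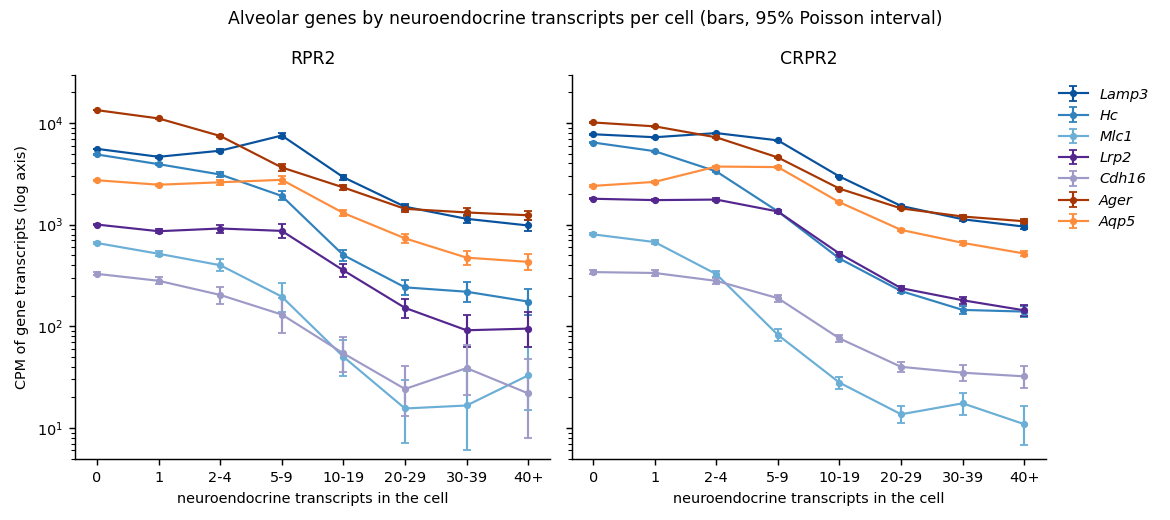
Level of each alveolar gene (CPM of gene transcripts, log axis) in cells grouped by their number of transcripts of 14 NE genes, for each section, with 95% Poisson intervals. *Hc* and *Mlc1* are lower at each step from no NE transcript up to the group of 20 to 29 in both sections, whereas *Lamp3* at 5 to 9 NE transcripts is still at 7535 CPM in RPR2 against 6750 CPM in CRPR2.

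A count of NE transcripts in place of the gate showed how the genes parted. *Hc* went from 4904 CPM in RPR2 cells without an NE transcript to 1918 CPM at 5 to 9 of them and 242 CPM at 20 to 29. In CRPR2 it went from 6430 CPM to 1350 and 222 CPM. *Mlc1* had 659.5, 196 and 15.5 CPM in RPR2 and 803, 82.3 and 13.6 CPM in CRPR2. Its last level in each section was near the highest negative control probe (9.93 and 8.43 CPM over the whole sections). *Lamp3* did not follow *Hc* and *Mlc1* at low NE counts. It had 5569 CPM at none and 7535 CPM at 5 to 9 in RPR2, and 7756 and 6750 CPM in CRPR2. It was low only at higher counts, with 1502 CPM in RPR2 against 1529 CPM in CRPR2 at 20 to 29. *Aqp5* was likewise no lower at 5 to 9 NE transcripts (2761 CPM in RPR2 against 3685 CPM in CRPR2) than at none (2734 and 2406 CPM), whereas *Ager* was (3655 and 4583 CPM against 13384 and 10129 CPM). Cells with 5 to 9 NE transcripts were shallow, with medians of 60 and 65 transcripts against 97 and 102 in cells without any. The part of depth and of transcripts from neighboring cells in these levels was not tested.

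Cells rich in *Lamp3* differed in whether they held *Hc* and *Mlc1*. This split was chosen after values had been seen. Of the cells with at least 5 *Lamp3* transcripts (5736 in RPR2), 82.5% in RPR2 (4731 cells) and 64.5% in CRPR2 (6063 cells) also had at least 3 transcripts of *Hc* or *Mlc1*. None of either gene was found in 242 cells of RPR2 (4.22%) and 1743 of CRPR2 (18.6%), at similar depth (median, 147 and 179 transcripts, against 150 and 172). These cells without *Hc* and *Mlc1* had 4.23 NE transcripts on average in RPR2 and 8.83 in CRPR2, against 0.264 and 0.997 in the cells with them. *Upk3a*, a uroplakin gene, had 5046 and 16226 CPM against 61.3 and 401 CPM. *Gabrp*, which encodes a GABA receptor subunit, had 8401 and 16854 CPM against 299.7 and 1207 CPM. *Scgb3a2*, a secretoglobin gene of airway secretory cells, had 26656 and 28744 CPM against 1255 and 2582 CPM. The type 2 gene *Slc34a2* was lower in them but not at 0 (35691 and 25775 CPM against 69925 and 78606 CPM). The gates for tumor (12.8% and 25.9%) and secretory airway cells (20.7% and 25.7%) each took part of them. More of them had at least 5 NE transcripts, 29.3% in RPR2 and 62.5% in CRPR2. In the cells with at least 3 transcripts of *Hc* or *Mlc1* these shares were 0.867% and 5.26%. Many of the CRPR2 cells thus met the NE minimum of the tumor gate but not its rule of 2 times. *Scgb3a2* is itself a marker of the secretory airway gate.

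**Figure D4:**
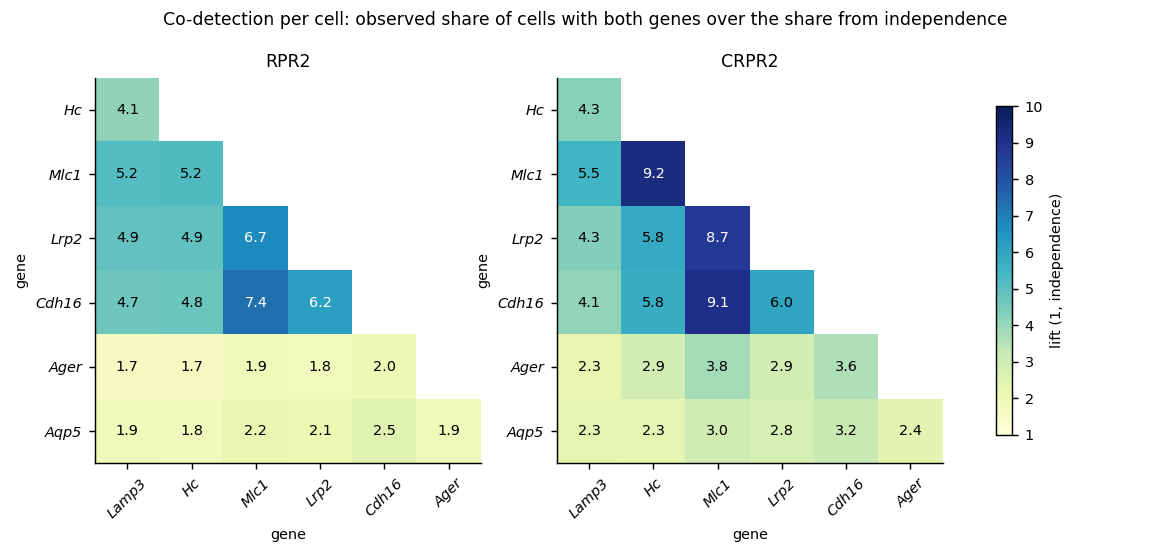
Lift of each pair of alveolar genes in the RPR2 and the CRPR2 section, which is the share of cells with both genes over the product of the shares with each, in cells thinned to 50 transcripts (137059 and 306550 cells). Pairs of type 2 genes lie between 4.10 and 7.36 in RPR2, and those of CRPR2 between 4.09 and 9.25, above all pairs of a type 1 with a type 2 gene of the same section. The highest lift that a pair can reach is smaller for commoner genes such as *Ager*.

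Co-detection per cell was measured as lift, the share of cells with both genes over the product of the shares with each, so that 1 stands for independence. Each cell was first thinned to 50 transcripts, which left 137059 cells in RPR2 and 306550 in CRPR2. The 10 pairs of type 2 genes had a median lift of 5.03 in RPR2 (4.10 to 7.36) and 5.79 in CRPR2 (4.09 to 9.25). The 10 pairs of a type 1 with a type 2 gene had medians of 1.87 (1.67 to 2.53) and 2.94 (2.29 to 3.81). The highest lift was between *Mlc1* and *Cdh16* in RPR2 (7.36, 6.56 to 8.24) and between *Mlc1* and *Hc* in CRPR2 (9.25, 8.84 to 9.67). The pair of type 1 genes, *Ager* and *Aqp5*, had 1.88 in RPR2 (1.84 to 1.92) and 2.43 in CRPR2 (2.38 to 2.49), within the range of the pairs across the types. A lift cannot exceed 1 over the share of cells with the commoner gene of the pair. *Ager* was in 29.8% of thinned cells in RPR2 and 14.3% in CRPR2. In RPR2 this put the limit for every pair with *Ager* below the lowest lift of a type 2 pair (4.10). How far the order of the kinds of pair and of the sections follows from such shares was not tested. Lift also depends on which cells are counted. Outside the tumor gate the type 2 pairs had a median of 4.70 in RPR2 and 3.43 in CRPR2, so that the order of the sections turned.

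Among the pairs of type 2 genes, *Lamp3* with *Hc* had the most cells. Of the thinned cells with *Lamp3*, 49.0% in RPR2 and 27.2% in CRPR2 had *Hc*, whereas 55.6% and 54.5% of the cells with *Hc* had *Lamp3*. The share of *Hc* cells with *Lamp3* was thus alike in the sections, and the share of *Lamp3* cells with *Hc* was not. Within tumor-gated cells only 6.49% of *Lamp3* cells in RPR2 (58 cells) and 4.52% in CRPR2 (522 cells) had *Hc*. Even so the lift there was 5.22 (3.96 to 6.74) and 4.21 (3.85 to 4.58), so the few transcripts of both genes in tumor-gated cells still fell into the same cells more often than independence gives. *Lamp3* with *Ager* had 2.70 in tumor-gated cells of RPR2 (2.30 to 3.15) and 2.28 in CRPR2 (2.17 to 2.38).

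The panel genes outside the 7 members that were most like each member were sought by the phi coefficient of detection over the thinned cells, taking the lower value of the sections. For *Lamp3* they were *Slc34a2* (0.364), *Sftpd* (0.317) and *Sftpb* (0.310), and the same 3 led for *Hc* (0.342, 0.296 and 0.272). *Sftpb* encodes surfactant protein B. *Mlc1* was led by *Slc34a2* (0.171), *Sftpd* (0.142) and *Sfta2* (0.134), and *Lrp2* by the same 3 genes (0.225, 0.196 and 0.186). *Cdh16* was led by *Sftpd* (0.09), *Slc34a2* (0.084) and *Sfta2* (0.0825). These nearest genes are known from type 2 cells. *Ager* was led by *Cav1* (0.213), *Tmem100* (0.208) and *Cryab* (0.195), of which the first is made by type 1 and the first and second by endothelial cells. *Aqp5* was led by the type 2 gene *Sftpd* (0.139), by *Sdc1* (0.138), which encodes the epithelial proteoglycan syndecan, and by *Selenbp1* (0.131). Some members were nearer to each other than these genes were. *Ager* and *Aqp5* had a coefficient of 0.193 in RPR2 and 0.170 in CRPR2. By the lower value, *Ager* was nearer to *Aqp5* than any gene outside the members was. In CRPR2 alone, *Sftpd* was nearer to *Aqp5* (0.193) than *Ager* was. The lower coefficient was 0.222 between *Mlc1* and *Hc*, 0.241 between *Lrp2* and *Lamp3*, and 0.102 between *Cdh16* and *Hc*. The points share the cells of 2 sections and their depth, so these coefficients are descriptions.

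Many segmented cells held transcripts of both types. In thinned cells, 31418 cells of RPR2 and 36552 of CRPR2 had at least 2 transcripts of type 1 genes or at least 2 of type 2 genes. Both conditions held in 4571 of these in RPR2, 14.5% (14.2% to 14.9%), and in 5653 in CRPR2, 15.5% (15.1% to 15.8%). Type 2 alone was found in 31.2% in RPR2 and 45.7% in CRPR2, and type 1 alone in 54.2% and 38.8%. Without thinning, 25.6% of such cells in RPR2 (25.2% to 26.0%) held both, against 31.7% in CRPR2 (31.3% to 32.0%), so the share rests on depth. Before thinning, cells with both had medians of 119 transcripts in RPR2 and 135 in CRPR2. Those with type 2 alone had 116 and 125, and those with type 1 alone 108 and 115. Of the cells with both, 51.0% in RPR2 and 32.0% in CRPR2 were endothelial-gated. The shares were 51.1% and 25.8% with type 2 alone, and 57.4% and 29.1% with type 1 alone. How many cells with both hold transcripts of neighboring cells was not tested. Most cells selected by their *Hc* transcripts also held *Ager*, as given further on, so these genes do not separate cells with both from type 2 cells. Restricted to cells without an NE transcript, the thinned share was 14.9% in RPR2 and 19.5% in CRPR2, and outside the endothelial gate it was 15.7% and 14.6%. The small difference between the sections therefore changed its direction with the cells counted.

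**Figure D5:**
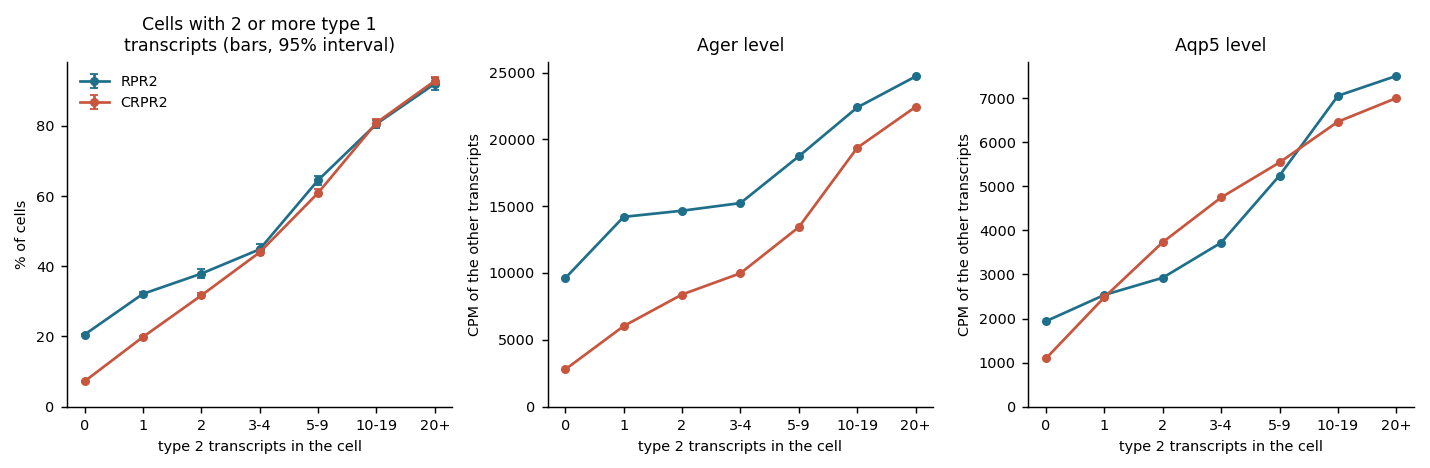
Left, share of cells (%) with at least 2 transcripts of *Ager* and *Aqp5*, with 95% binomial intervals; middle and right, *Ager* and *Aqp5* in CPM of the transcripts that are not of type 2 genes; all by the number of type 2 transcripts in the cell, for each section. The share goes from 20.5% to 92.0% in RPR2 and reaches 92.9% from 7.17% in CRPR2.

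Over all kept cells of a section, tumor-gated ones included, cells with more type 2 transcripts had more, not fewer, type 1 transcripts. In RPR2, 20.5% of the cells without a type 2 transcript had at least 2 type 1 transcripts, against 64.5% of cells with 5 to 9 and 92.0% of cells with 20 or more (1055 cells). In CRPR2 the shares were 7.17%, 60.9% and 92.9%. Depth differed along this row (medians from 96 to 186 transcripts in RPR2), but the level did the same as the share. *Ager* had 9609 CPM of the transcripts that were not of type 2 genes in RPR2 cells without a type 2 transcript, 18735 CPM at 5 to 9 and 24713 CPM at 20 or more. In CRPR2 it had 2777, 13430 and 22435 CPM. *Aqp5* had 1939 and 7511 CPM at the ends of the row in RPR2, and 1092 and 7008 CPM in CRPR2. In cells richest in type 2 transcripts the sections were therefore close for both type 1 genes, and they were furthest apart for *Ager* in cells without any. Most tumor-gated cells lay among those without any, since 13.4% of them in RPR2 and 14.7% in CRPR2 had a type 2 transcript. Tumor-gated cells were 9.96% of all cells in RPR2 and 55.2% in CRPR2, and their part in this row was not tested.

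Cells with both types had higher levels of *Sftpb*, *Slc34a2* and *Sftpd* than cells with type 2 alone. *Sftpb* had 78242 CPM in them in RPR2, 69221 CPM in cells with type 2 alone and 12326 CPM in cells with type 1 alone. In CRPR2 it had 69561, 57990 and 18638 CPM. *Slc34a2* and *Sftpd* had the same order. *Cav1* was highest with type 1 alone, with 16549 CPM in cells with both, 18427 CPM with type 2 alone and 43021 CPM with type 1 alone in RPR2, and 10442, 8595 and 20283 CPM in CRPR2. Of 7 genes of transitional epithelial states on the panel, 6 in RPR2 (all but *Cldn4*) and 7 in CRPR2 were lower with both than with type 1 alone. Against type 2 alone, 3 were lower in RPR2 and 5 in CRPR2. Of the 4 broad epithelial genes, 1 in RPR2 and 3 in CRPR2 were also lower with both than with type 1 alone. The share of all panel genes that were lower in these contrasts was not counted. Without that share, the counts are not read as a result about transitional genes. Levels are shares of all transcripts, and the part of the high *Sftpb*, *Slc34a2* and *Sftpd* in the CPM of other genes was not tested. *Krt8*, a keratin gene of such states, had 6221 CPM in cells with both in RPR2, between type 2 alone (5166 CPM) and type 1 alone (9500 CPM). In CRPR2 it had 12537 CPM in cells with both, below type 2 alone (13402 CPM) and type 1 alone (18744 CPM). *Krt19* was lower in cells with both (4146 and 6173 CPM) than in cells with type 1 alone (13204 and 14487 CPM). Compared with type 2 alone (2942 and 6694 CPM), it was higher with both in RPR2 and lower in CRPR2. *Cldn4* had 305 CPM (RPR2) and 998 CPM (CRPR2), against 457 and 1354 CPM with type 2 alone and 293.7 and 1911 CPM with type 1 alone. *Cdkn1a* (2537 and 3118 CPM) was lower with both than with type 2 alone (3069 and 3319 CPM) or type 1 alone (5122 and 4413 CPM). *Ccn1*, a matricellular gene, was higher with both (1771 and 2354 CPM) than with type 2 alone (1142 and 1196 CPM). With type 1 alone *Ccn1* had 9933 and 6959 CPM. The cycling genes were both lower with both types than with type 2 alone. Of 4 broad epithelial genes, 1 was lower than with type 2 alone in RPR2 (*Prom1*) and 2 in CRPR2 (*Epcam* and *Prom1*). Cells with at least 5 NE transcripts were 1.16% of the cells with both in RPR2 and 11.5% in CRPR2, and 3.84% and 28.1% of those with type 2 alone, and their part in these levels was not tested.

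In cells selected by their *Hc* transcripts, most other members had similar levels in the sections. With at least 3 *Hc* transcripts and at most 1 NE transcript there were 8306 cells in RPR2 and 8488 in CRPR2 (median, 132 and 152 transcripts), a set chosen after values had been seen. *Lamp3* had 37016 CPM in RPR2 against 36767 CPM in CRPR2, a log2 ratio of -0.01 (-0.03 to 0.01). *Ager* (-0.09), *Aqp5* (-0.12) and *Mlc1* (-0.19) differed little. *Ager* was detected in 85.8% of these cells in RPR2 and 85.6% in CRPR2, and *Aqp5* in 50.1% and 50.5%. *Lrp2* was higher in CRPR2, with 6928 and 8756 CPM (0.34, 0.30 to 0.38), and *Cdh16* lower, with 1993 and 1322 CPM (-0.59, -0.68 to -0.50). Cycling genes were higher in CRPR2. *Mki67*, which encodes the proliferation marker Ki-67, had 211 CPM in RPR2 against 1823 CPM in CRPR2 (log2 ratio, 3.11, 2.92 to 3.31) and was detected in 1.63% and 12.4% of these cells. *Top2a*, a topoisomerase gene of dividing cells, had 197 and 1289 CPM (2.71, 2.51 to 2.91). Higher cycling genes in CRPR2 were not particular to these cells. In the groups by alveolar type, which had no limit on NE transcripts, *Mki67* was also higher in CRPR2. It had 316 CPM in RPR2 against 3767 CPM in CRPR2 with type 1 alone. With type 2 alone it had 541 and 4044 CPM, and with both types 349 and 2828 CPM. Tumor-gated cells made up 9.96% of the RPR2 and 55.2% of the CRPR2 section, and the part of their transcripts in these counts was not tested.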

How the data were processed

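Transcripts of 479 genes (379 of a tissue atlas panel and 100 custom genes) were counted by Xenium In Situ in 1 RPR2 and 1 CRPR2 section. The authors deposited whole-number counts per gene and segmented cell without normalization, made with Xenium Explorer and segmented by expansion of nuclei. The submitters' processing notes also name Seurat 4.4.0. Genes and cells were used as given, and 8 barcodes occur in both sections. No doublet caller was run. Transcripts of a neighboring cell can fall into a segmented cell, which can raise co-detection. Cell positions, the scRNA-seq samples and repeats of the experiment were not used here.

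The minimum of 20 transcripts per cell removed 1903 RPR2 cells and 2236 CRPR2 cells. A cell took the class with the most marker transcripts, if it had at least 3 of them (5 for NE tumor) and at least 2 times those of the next class. For shares of cells and lift, cells were thinned to 50 transcripts by a draw without replacement (seed 1), which left out 15856 and 34059 cells. Intervals are exact (Poisson, Clopper-Pearson, conditional binomial) at 95%. No test was possible with 1 section per genotype. The members and all lists were chosen with earlier results of these data known. All 7 members are named, with the 3 nearest genes of each and, in cells with both types, examples from 4 lists, and other genes were chosen after their values were seen. The panel held 5 of 20 genes of the further alveolar list, 7 of 8 of the transitional, 4 of 7 of the broad epithelial and both of the cycling list. The scripts were tested on simulated data. Python 3.11.15, numpy 2.4.6, scipy 1.17.1 and matplotlib 3.10.9 were used. Alternatives were other depth minimums, tumor gates, thinning depths, transcript minimums and gene sets, and those with cells without an NE transcript or outside the endothelial gate were added after the data had been seen.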

Additional observations from a re-analysis of the deposited data

Results flagged for a closer look

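With 1 section of each genotype, a difference between the sections in a contrast within them was not tested. *Lamp3* went opposite ways between cells with 5 to 9 NE transcripts and cells with none, with a log2 ratio of 0.44 in RPR2 and -0.20 in CRPR2. In secretory airway-gated cells over all other cells, 4 of the 7 genes had opposite directions in the sections, as did 43 of the 375 panel genes with at least 100 CPM in either group of a section (11.5%). The log2 ratio was -2.10 in RPR2 and 0.86 in CRPR2 for *Lamp3*, -2.14 and 0.05 for *Hc*, -1.27 and 1.18 for *Lrp2*, and -2.56 and 0.06 for *Ager*, so that *Hc* and *Ager* were near 0 in CRPR2. This contrast was chosen after the levels by class had been seen. The secretory gate took 11175 cells in RPR2 and 18030 in CRPR2.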

How the results depend on the processing

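Of 50 alternatives listed at the outset and 6 added after seeing the data, 0 turned the direction of a log2 ratio, 11 stayed within the counting interval and 45 moved beyond it. Shares of cells and lifts have no such direction and could not count as turned. The order of the sections did turn for the lift outside the tumor gate. For the share it turned outside the endothelial gate and, by little, when thinned to 30 transcripts. A minimum of 50 transcripts per cell moved the log2 ratio of CRPR2 over RPR2 for the type 1 genes to -1.06 in all cells and -0.43 outside the tumor gate. With the tumor gate at 10 NE transcripts, the ratio outside the gate was 0.26 for type 2 and -0.48 for type 1 genes, without the dominance rule 0.36 and -0.40, and in cells with no NE transcript 0.46 and -0.36. For tumor-gated over other cells, a gate at 2 NE transcripts gave -2.32 (RPR2) and -2.55 (CRPR2) for type 2 genes and -2.54 and -2.04 for type 1 genes. A gate at 10 gave -2.58 and -2.78, and -2.72 and -2.20. No dominance gave -2.22 and -2.45, and -2.54 and -1.98. The share of alveolar-gated cells with both types (RPR2, then CRPR2) was 8.21% and 8.10% thinned to 30 transcripts, 26.0% and 28.9% thinned to 100, 25.6% and 31.7% without thinning, 24.9% and 24.96% at 1 transcript of each type, 6.87% and 7.71% at 3, 11.1% and 12.0% without *Lamp3*, 11.2% and 11.8% with *Ager* only, and 15.7% and 14.6% outside the endothelial gate. In cells with no NE transcript it was 19.5% in CRPR2. Across these the share ran from 6.87% to 31.7%, so its level follows depth and minimum. The median lift of type 2 pairs was 4.08 and 4.40 thinned to 100, 4.32 and 5.10 without thinning, 9.66 and 12.8 at 2 transcripts, and 4.70 and 3.43 outside the tumor gate. The cause of the other shifts was not tested.

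No paired analysis was possible because each genotype had 1 section. Intervals leave out the spread between mice, and about 100 transcripts per cell limit what a cell without a transcript shows.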
